A study of Mus musculus with 4 samples.

Results

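The distal desert is the stretch of chromosome 5 that begins about 355 kb upstream of the Shh start and ends about 720 kb upstream of it, before Rnf32. It was read by 3196 of the 48316 non-control probes of a custom tiling array, namely all probes that lie wholly within chromosome 5: 29150001-29515000 (mm9). The interval was set by position and not by signal. The probes are 60 bases long, 77.4% of neighbouring pairs touch without a gap, and together they cover 52.5% of the 365 kb. The largest gap spans 15.25 kb.

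Nuclear RNA was compared between mouse embryonic stem cells (ESC) and the neural progenitor cells (NPC) derived from them, with 2 arrays per group, to profile the Shh region. Both groups come from 46c, an ESC line that carries a fluorescent reporter of Sox1, an early neural gene. ESC were kept in supplemented GMEM medium, NPC were made with the N2B27 differentiation protocol for a time that the labels do not give, and the labels name no other allele or agent. In both groups RNA was taken with TRIzol from chromatin of nuclei prepared without RNase, amplified as a whole transcriptome and labelled with Cy3 by random priming, so the strand of an RNA is not known.

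Shh encodes a secreted signalling protein that patterns the neural tube, the forebrain and the limb buds. Its expression is set by enhancers spread over a gene desert, a long stretch without protein-coding genes, and by a limb enhancer in an intron of Lmbr1 beyond it. The distal desert is described as holding the forebrain enhancers SBE2, SBE3 and SBE4 and enhancers active in epithelia of the mouth, throat and gut. Active enhancers are often transcribed into short, unstable RNA that is found in the nucleus, which is why a nuclear RNA profile of such a region is of interest. The positions of the enhancers on mm9 are not used here, so no window or probe is assigned to one of them. In the RefSeq gene table (GRCm38, used for names and order alone) 6 loci lie between Shh and Rnf32. They are, from Shh onwards, the lncRNA 9530036O11Rik, the pseudogenes Gm10290 and Gm52839, and the lncRNAs Gm42243, Gm35688 and Gm35881. No file column pairs probes with genes, so the ESC and NPC marker genes and the Shh pathway genes could not be placed, and the cell labels were not checked against them.

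The distal desert carried little signal in either cell type, and the share of probes with signal did not separate the cell types. The scanner software marked 29.7% of its probes well above background in ESC 1 and 34.9% in ESC 2, against 26.9% in NPC 1 and 30.9% in NPC 2. The ranges of the groups overlap. The ESC mean was 32.3% ± 3.65 and the NPC mean 28.9% ± 2.77 (SD over 2 arrays), a difference of -3.38 percentage points that stayed within the spread between arrays (exact permutation test, two-sided, p = 0.667, with 0.333 the smallest that 2 arrays against 2 allow). Negative control spots passed the same mark at 1.93% on average, far below the share of the desert on each array. No probe of the desert was saturated.

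The neighbouring sequence on the Shh side had similar shares, and the sequence beyond the desert had much higher ones. Over the nearest 300 kb towards Shh the shares were 32.1% ± 2.36 in ESC and 30.3% ± 3.48 in NPC. Over the nearest 200 kb on the Rnf32 side they were 71.7% ± 3.12 and 59.2% ± 3.03. Each array of the Rnf32 side lay above every array of the desert. Of the 38 other tiles, where a new tile starts at any gap of over 50 kb, 4 had a lower share than the distal desert in ESC and 1 in NPC.

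Most probes of the desert were marked above background on no array. Of the 3196 probes, 1764 (55.2%) were above background on no array and 605 (18.9%) on all 4, and the remainder on 1 to 3 arrays. In the rest of the Shh tile 38.7% were above background on no array and 33.9% on all 4. Probes above background on both ESC arrays and neither NPC array numbered 46 (1.44%), and those with the opposite pattern 18 (0.563%). These shares were 2.53% and 0.935% in the rest of the Shh tile, 1.62% and 0.698% on the Shh side, and 1.62% and 5.02% in the other tiles without chromosome 12, so those of the desert were near or below its surroundings.

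The marks and levels of touching probes were weakly related in the desert and on its Shh side. Across touching pairs the Spearman coefficient of the level was between 0.11 and 0.12 on the 4 arrays, against 0.051 to 0.12 on the Shh side and 0.32 to 0.58 on the Rnf32 side. On ESC 1, 36.7% of the probes that follow one above background were themselves above background, against 27.3% of those that follow a dim one. On the Shh side these shares were 33.0% and 29.8%, and on the Rnf32 side 81.0% and 47.0%. These are descriptions over probes, which share arrays and are not replicates. Probes of different sequence respond differently, and the probe sequences are not used here, so these values do not show whether transcription there is continuous.

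The brightest probes of the desert were bright in both cell types (they were chosen after their values were seen). Levels here and below are log2 intensity minus the 75th percentile of the array over probes above background on all arrays, so a level of 0 equals that percentile. The brightest, at 29403962-29404021, stood at 3.45 and 3.32 in ESC 1 and ESC 2 and at 2.98 and 2.37 in NPC 1 and NPC 2. The next, at 29181405-29181464, stood at 2.60 and 2.85 in ESC and at 2.10 and 2.58 in NPC. A further probe at 29257026-29257085 had a mean of 2.86 in ESC and 2.11 in NPC. Each of these probes stood alone, with dim probes on both sides. In the mean of the 4 arrays, the nearest probes stood at -4.39 and -4.29 for the first. They stood at -5.715 and -4.37 for the second, and at -5.31 and -4.27 for the further probe.

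The order of bright and dim probes was largely shared between the cell types. Across its 3174 probes with a value on every array, the Spearman coefficient was 0.799 between the ESC arrays and 0.764 between the NPC arrays, and 0.793, 0.716, 0.813 and 0.730 for the 4 pairs of an ESC with an NPC array. In the rest of the Shh tile the ESC pair reached 0.885. The highest coefficient in the desert joined ESC 2 with NPC 1, and the lowest ESC 1 with NPC 2, so the arrays did not sort by cell type.

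In windows of 5 kb, 69 of 73 held the minimum of 5 probes, with a median of 51. The level ran from one end of the desert to the other without a broad peak. In 5 consecutive segments of 73 kb, counted from the Shh side, ESC had mean levels of -4.11, -4.23, -4.21, -4.24 and -4.17. NPC had mean levels of -4.60, -4.75, -4.77, -4.93 and -4.77. Both NPC arrays lay below both ESC arrays in each segment. The ESC arrays parted in the fourth segment, at 29369001-29442000, where ESC 1 stood at -4.48 and ESC 2 at -4.0, with 22.3% and 35.5% of probes above background. In single windows this gap reached 1.32.

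A few windows stood above the others. The window at 29510001-29515000, the last before the Rnf32 side, had the highest share in ESC, with 57.5% and 60% of its probes above background in ESC 1 and ESC 2 and 42.5% and 47.5% in NPC 1 and NPC 2. The window at 29185001 followed, with 49.3% and 47.9% in ESC and 35.2% and 40.8% in NPC. The windows at 29500001 and 29390001 had means of 46.4% and 43.8% in ESC and of 39.3% and 37.5% in NPC. At 29450001 the ESC mean of 46.3% joined 33.3% in ESC 1 and 59.3% in ESC 2, so the ESC arrays differed widely there. The window at 29445001 had the highest share in NPC, 50%, from 8 probes and with 62.5% in NPC 1 and 37.5% in NPC 2. In NPC the windows at 29470001, with 42.6% on both arrays, and 29180001, with a mean of 38.7%, complete the 5 highest. Over all 69 windows the ESC share was the higher in 50, the NPC share in 14, and they were equal in 5.

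The comparison of NPC with ESC gave a small, even shift and no window called higher. The mean level of the desert was -4.26 in ESC 1 and -4.11 in ESC 2. It was -4.69 in NPC 1 and -4.78 in NPC 2. The groups do not overlap, and the difference of -0.55 exceeds the SD of 0.10 in ESC and 0.066 in NPC (exact permutation test, two-sided, p = 0.333, the smallest possible). In such bulk samples, fewer cells with RNA from the region and less RNA per cell cannot be told apart. All 69 windows lay below 0, between -0.25 and -1.23 with a median of -0.54. Of these, 35 (50.7%) were called lower, which means a Benjamini-Hochberg adjusted p under 0.05 in limma over all windows of the array. With 2 kb windows 27 of 148 were called lower, and with 10 kb windows 30 of 36. The share over the array was not counted at these 2 sizes. At 5 kb the same call was made for 29.4% of the 963 windows of the array. It was made for 50.3% of the 191 other windows of the Shh tile, so the desert's share lies at that of its surroundings. None was called higher, nor did any rise at an unadjusted p under 0.05, against 22.0% called higher over the array. Outside a tile on chromosome 12, 35.5% of windows were called lower and 6.16% higher, and of the other windows of the Shh tile 0.00% were called higher. Both NPC arrays were below both ESC arrays in 66 windows (95.7%), against 57.7% over the array. This order was not particular to the desert. The mean level had it on the Shh side, on the Rnf32 side and in the rest of the Shh tile. The other tiles without chromosome 12 had it as well.

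The size of this shift moved with the scaling. Over 9 scalings the median change of the desert ran from -0.93 to -0.015 and the number of windows called lower from 69 to 1. The share of windows called lower over the whole array moved too. It was 64.3% under the scaling that gave 69, and 4.36% to 7.48% under those that gave 1. When arrays were scaled on SRN control spots by their medians, 28 windows lay above 0. The median of the other windows of the Shh tile moved along, from -0.91 to 0.0026. Low spots are replaced by a floor that differs between arrays, at -5.81 in ESC and -6.20 in NPC on average, a difference of -0.39. On average 39.8% of the desert's probes in ESC and 45.0% in NPC were at that floor. The 728 probes at the floor on all 4 arrays carry exactly that difference. The 1267 probes at the floor on no array differed by -0.51, and the 605 above background on all arrays by -0.48. The window calls in limma were lost when either ESC array was left out, and not when either NPC array was. The median change of the windows was -0.59 without ESC 1 and -0.47 without ESC 2. It was -0.61 without NPC 1 and -0.49 without NPC 2.

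Relative to the rest of its tile, no shift of the distal desert beyond the spread between arrays was measured under the scaling used for the levels above. Within each array, where shifts of the whole array cancel, the desert minus the rest of the Shh tile was -0.91 in ESC 1, -0.81 in ESC 2, -0.89 in NPC 1 and -0.78 in NPC 2. The difference between the groups was 0.028, within the spread between arrays (SD 0.072 and 0.077, exact permutation test, two-sided, p = 0.667). The floors do not cancel in this way. At the floor were 39.8% and 45.0% of the desert's probes in ESC and NPC, against 27.5% and 31.4% in the rest of the tile. With a common floor the difference was 0.082, and with medians over probes -0.098. Neither was set against its own spread between arrays. Against the 300 kb on the Shh side it was -0.065, again with overlapping arrays. Against the 200 kb on the Rnf32 side it was 0.49, from -1.89 and -2.0 in ESC to -1.61 and -1.30 in NPC without overlap (exact permutation test, two-sided, p = 0.333, the smallest possible). The gap between the desert and the gene-bearing side was thus narrower in NPC, where the level of the Rnf32 side itself differed from ESC by -1.04. On the Rnf32 side only 11.8% and 19.9% of probes were at the floor in ESC and NPC. Among probes above background on all 4 arrays the desert differed by -0.48 and the Rnf32 side by -0.77. How far the floor narrowed the gap was not tested.

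The window next to the Rnf32 side had the largest fall in the desert. Its 40 probes averaged -3.00 in ESC 1, -2.85 in ESC 2, -4.22 in NPC 1 and -4.10 in NPC 2. The groups are far apart and the arrays of each group close together. The change of -1.23 (SE 0.14, limma adjusted p = 0.00671) exceeds the next largest, -0.88 at 29450001, and this window was the only one of the 69 called lower under all 9 scalings, against 3.84% of the windows of the array. Over these scalings the change ran from -1.62 to -0.43, the latter with normexp. Without ESC 1 it was -1.31 and without ESC 2 -1.16, with adjusted p = 0.114 and 0.117 in limma. Within each array the window stood above the mean of the other 68 by 1.28 and 1.25 in ESC and by 0.47 and 0.70 in NPC. It lies at the edge of the interval. The window before the gap, at 29500001, changed by -0.52. Those just outside, at 29515001 and 29520001, changed by -0.50 (SE 0.14) and -0.36 (SE 0.26). Further out, those at 29525001 and 29530001 changed by -0.80 (SE 0.38) and -0.62 (SE 0.34). The mean level of the 200 kb on the Rnf32 side changed by -1.04. Of the array's windows outside the desert, 4.70% fell further than this window, so a fall of this size is not particular to it.

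Inside this window 36 of 40 probes were lower in the mean of NPC and 4 higher, with a median difference of -1.19. Of these, 4 were at the floor on all arrays, where the difference between the floors fixes the sign. Of the 22 probes at the floor on no array, 20 were lower and 2 higher, with a mean difference of -1.11. The longest run of signal in the desert lies here. The run at 29512042-29513376 held 10 probes in a row above background on both ESC arrays, of which 9 were so on NPC 1 and 10 on NPC 2. Its mean was -1.01 in ESC 1, -0.71 in ESC 2, -2.18 in NPC 1 and -1.74 in NPC 2. The highest probe of the window, at 29513959-29514018, stood at 0.65 and 0.89 in ESC and at 0.22 and 0.45 in NPC. Signal was thus present in both cell types. The window was named for its fall and the run for its signal in ESC, so their lower values in NPC are not separate evidence.

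The other 4 of the 5 largest called falls lay between -0.78 and -0.66. The window at 29380001, with 15 probes, stood at -4.41 and -4.21 in ESC 1 and ESC 2 and at -5.09 on both NPC arrays. The window at 29440001 stood at -4.47 and -4.07 in ESC and at -4.98 and -5.11 in NPC. That at 29360001 stood at -3.87 and -4.06 against -4.64 and -4.66, and that at 29300001 at -4.65 and -4.27 against -5.05 and -5.17. In these windows the groups do not overlap. Each lost its call under 3 or more of the 9 scalings.

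Runs of at least 5 neighbouring probes above background on both arrays of a group were few. There were 7 in ESC and 5 in NPC, with 1 of each in the last window, holding 1.38% and 0.970% of the desert's probes, against 43.0% and 18.4% on the Rnf32 side, where the longest held 34 and 20 probes. On the Shh side the shares were 0.992% and 0.661%. Of the runs, 3 in each group shared probes with a run of the other. The run at 29339563-29340016 had 7 probes in ESC, at -1.69 in ESC 1, -0.018 in ESC 2, -1.48 in NPC 1 and -1.98 in NPC 2, so ESC 2 alone was high. The run at 29221219-29221578 had 6 probes, at -1.26 and -1.56 in ESC and -2.45 and -1.89 in NPC. That at 29189129-29189488 had 6 probes as well, with an ESC mean of -1.92 and an NPC mean of -2.41. The remaining 3 ESC runs had 5 probes each. They lay at 29183413-29183782, 29207724-29208023 and 29416226-29416583, and differed by -0.80, -1.30 and -0.52.

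The NPC runs outside the last window were equally short. The run at 29416106-29416583 had 7 probes, at -2.97 in ESC 1, -1.42 in ESC 2, -2.74 in NPC 1 and -2.62 in NPC 2. The run at 29488523-29489110 had 7 probes as well, at -2.97 and -1.87 in ESC and -2.31 and -2.58 in NPC. In both, the NPC arrays lay between the ESC arrays. A short run of 5 probes at 29164595-29164947 was at -3.06 and -1.90 in ESC and at -2.22 and -1.91 in NPC.

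At the level of single probes, few differences passed. Of the 3174 probes tested, 36 (1.13%) were called lower and 5 (0.158%) higher (limma, Benjamini-Hochberg over 47900 probes). Over the whole array the shares were 1.58% and 10.8%, outside the chromosome 12 tile 1.93% and 2.58%, and in the rest of the Shh tile 2.21% and 0.175%. The counts moved with the arrays used, and rose in both directions when either NPC array was left out. The share over the whole array was not counted for these settings. In 32 of the 36 lower probes neither NPC array was above background, and in 21 both were at the floor, so these sizes are only bounded. The lower probes lay in 26 windows, 6 of them in the last window and at most 3 in any other.

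The largest fall was at 29207964-29208023, with 0.74 and 0.61 in ESC 1 and ESC 2 and -4.80 and -2.88 in NPC 1 and NPC 2 (change -4.52, SE 0.73, limma adjusted p = 0.0343). Of the NPC arrays, 1 was above background there, and the fall was called under 7 of the 9 scalings. At 29298547-29298606 the ESC arrays stood at -2.39 and -1.85 and both NPC arrays at the floor, which gives a level at least 3.34-fold higher in ESC (limma adjusted p = 0.0108). Such bounds set the ESC mean against the dimmest signal that counted as above background on the NPC arrays. Bounds were likewise set at 3 other probes where neither NPC array was above background, though not always at the floor. They were at least 3.8-fold at 29416733-29416792 and at least 3.27-fold at 29511478-29511537 (limma adjusted p = 0.0133 and 0.0122). At 29220203-29220262 the bound was at least 5.28-fold (limma adjusted p = 0.0297). These bounds hold only under the scaling used for the levels above. Among probes measured on all 4 arrays, 3 were called lower. At 29258874-29258933 the ESC arrays stood at -0.26 and -0.36 and the NPC arrays at -2.60 and -2.62, and at 29232146-29232205 they stood at -0.70 and -0.33 against -2.23 and -2.83. At 29192483-29192542 the levels were -1.05 and -0.71 against -2.75 and -2.49. The probe at 29258874 was called under all 9 scalings, and those at 29232146 and 29192483 under 5 of the 9.

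Of the 5 higher probes, 1 was above background on all 4 arrays. This probe, at 29226405-29226464, stood at -2.68 in ESC 1, -2.95 in ESC 2, -0.31 in NPC 1 and -0.40 in NPC 2. The rise of 2.45 (SE 0.30, limma adjusted p = 0.0173), a 5.48-fold change, was called under all 9 scalings. The probe at 29272168-29272227 rose from -3.21 and -3.94 in ESC to -1.54 and -1.03 in NPC (change 2.29, SE 0.42, limma adjusted p = 0.0468). There, ESC was above background on 1 of 2 arrays, and the rise was called under 5 of the 9 scalings. The other 3, at 29338986, 29349254 and 29269904, were above background on no ESC array, so the size of their rise is not given (limma adjusted p = 0.0435, 0.0458 and 0.0436). Of the NPC arrays, 2, 1 and 0 were above background there, so the probe at 29269904 was above background on no array. Of the 10 nearest neighbours of these 5 probes, 4 were at the floor on all arrays and the other 6 were lower in the mean of NPC. At the first probe the neighbours differed by -0.56 and -0.53. Some larger differences were not called. At 29196186-29196245 the ESC arrays stood at -5.64 and -5.79, NPC 1 at -0.50 and NPC 2 at -3.57 (change 3.68, SE 1.12, limma adjusted p = 0.151). At 29495522-29495581 NPC 2 alone left the floor, at 0.99, and at 29181041-29181100 ESC 1 alone was at the floor.

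Of the 58 probes touching a lower one, 15 were at the floor on all arrays, and 37 of the other 43 were lower in NPC, with a median of -0.64. Among the desert's 600 probes with values that were above background on all 4 arrays, 510 (85%) were lower in NPC. The median of these 600 probes was -0.44. The neighbours did not have to be above background, so these shares and medians cannot be compared directly. The called probes themselves had a median of -2.33, which follows from their selection.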

How the data were processed

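Each sample was hybridised to 1 custom Agilent array read in 1 colour. The deposited spot intensity values are background-subtracted signals of Feature Extraction 11.5.1.1, per the file headers, in which low spots sit at a floor that differs between arrays. Probes were placed on mm9, and all arrays lay on 1 slide, so no slide batch could be tested. The same deposited files hold marks (unit other) for spots above background, saturated or outlying. The authors' own deposited table holds log2 values, by limma per the submitters' processing notes, with scaling, centring and filter not given in the sources used here; it served as an alternative.

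Here, the log2 intensity was scaled by subtracting the 75th percentile of the array, taken over the 15356 probes above background on all arrays. Control spots (3188) and outlier spots were left out. Values were averaged in 5 kb windows with at least 5 probes and fitted in limma 3.58.1 (R 4.3.3) over all windows, or per probe over all probes, with group as the single term. The fit was tested on simulated data with normal noise of the same spread in all windows. The simulation held no floors and no shift of a whole array, so it cannot show how the calls behave under those. The labels do not say whether the 2 arrays of a group are different cultures. The limma p-values therefore set the group difference only against the spread between these arrays, which may be technical. That spread is shared in part over all windows or probes. All windows share the same 4 arrays, so a shift of a whole array moves their calls together. The number of arrays limits the precision. The members and lists were chosen with earlier results of these data known. Named windows were the 5 largest called changes each way and the 5 highest shares above background per group. Named probes were the 5 largest called changes each way, and named runs the 5 longest per group with ties; other probes were chosen after their values were seen. The scanner files give median rather than mean spot signals, so normexp used the median. Alternatives were other scalings, normexp, a common floor, the authors' values, window and probe settings, the replicate block and leaving out each array.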

Additional observations from a re-analysis of the deposited data

Results flagged for a closer look

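The SRN control spots carried signal although no comparison tests them: averaged over the arrays, 56.4% of the 677 passed the background mark, and 1.93% of negative control spots did.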

How the results depend on the processing

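Scaling on the percentile of all probes gave 69 windows and 75 probes called lower, 1 probe called higher and a mean change of -0.94. Scaling on the window medians gave 67 windows, 56 probes, 3 higher probes and -0.75. The SRN array medians gave 1 window, 21 probes, 11 higher probes and -0.028, and turned the changes at 29180001, 29470001 and 29500001 to 0.078, 0.11 and 0.0048. The SRN spot changes gave 1 window and -0.27, and leaving the chromosome 12 tile out of the scaling gave 1 window and -0.33. A common floor gave 4 windows, 60 probes and -0.37. Normexp, run on median spot signals, gave 1 higher probe and -0.17, and the authors' values gave 60 windows and 1 higher probe. Medians instead of means over probes gave 14 windows, a mean change of -0.82 and a desert minus rest of the tile of -0.098. Without dim probes there were 3 higher probes and a change of -0.68, and the trend prior gave 2 higher probes. Leaving out 1 array gave 0 to 54 lower windows, 41 to 180 lower probes, 2 to 41 higher probes, mean changes of -0.62 to -0.48, a desert minus rest of -0.026 to 0.083 and share differences of -5.96 to -0.798. With 1 array left in a group, its spread is taken from the other group. With 2 kb windows 27 of 148 were called lower and with 10 kb windows 30 of 36, so the share called grew with window size. None of these settings called a window higher. The cause of these changes was not tested, beyond the shift that a scaling gives to a whole array.

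The replicate numbers are not said to mark a shared culture or day, and deviations of same-numbered arrays correlated at 0.037 over 963 windows. With the replicate block 11 windows and 15 probes were called lower and 0 probes higher. The shares over the whole array were not counted with the block. Signal near background limits what the desert can show, since 55.2% of its probes were above background on no array.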
